A study of Mus musculus with 14 samples.

Results

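The effect of Tet2 loss on gene expression in common myeloid progenitors (CMP) was read from 4 of the 14 arrays of the study, 2 from Tet2-deficient (KO) and 2 from wild-type (WT) CMP, chosen by their titles. The other arrays held LSK cells and granulocyte-macrophage progenitors (GMP) of both genotypes, with 2 arrays each, and replated Tet2-deficient cells with 2 arrays. CMP were sorted from bone marrow as lineage-negative, c-Kit-positive, Sca1-negative, CD34-positive cells with low Fc gamma receptor. LSK cells, which carry c-Kit and Sca1, include the blood stem cells, and GMP differ from CMP by high Fc gamma receptor. The labels give the mice as Tet2+/+ Mx+ and Tet-/-Mx+ littermates on a B6/129 background, sorted 4 weeks after deletion by pIC injection, so the controls carried Mx as well. The Mx promoter, which commonly drives Cre in such crosses, responds to the interferon that pIC, a mimic of viral RNA, induces, and it is active in many organs besides blood. No time is given for GMP. The labels give neither the age of the mice nor the number pooled for a sort, and they do not state whether replicate arrays stand for different mice. Each p therefore measures only the spread between these samples, which may be technical.

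TET2 oxidises 5-methylcytosine in DNA, mostly where C is followed by G, as a step towards removal of the methyl group. TET2 is one of the genes most often mutated in human myeloid malignancies. CMP stand between stem cells and the committed precursors of granulocytes, monocytes, red cells and platelets, and they already express myeloid granule enzymes together with regulators of the erythroid and megakaryocytic lines.

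Values are probe-set intensities on a linear scale, made with RMA, a method that corrects background, normalizes arrays and combines the probes of a set. The 4 arrays had median intensities between 31.9 and 32.6, and the highest of 27 bacterial control probe sets, used as the floor below which a level is only a bound, lay between 22.1 and 26.9 on them. Pearson's r over probe sets was 0.982 between the WT replicates, 0.972 between the KO replicates and 0.981 between replicate 1 of WT and replicate 1 of KO, and KO replicate 2 had the lowest values with the other CMP arrays, from 0.968 to 0.972. Xist, which silences an X chromosome in female cells, had intensities of 26.6 and 29.7 in WT and 5996 and 6168 in KO, and the Y-linked Eif2s3y had 1143 and 1112 in WT and 10.1 and 12.5 in KO. The LSK and GMP arrays split by genotype in the same way. The 2 replated Tet2-deficient arrays did not, with Xist at 18.4 and 21.9 and Eif2s3y at 2056 and 2083. They have no WT counterpart among the arrays. In the sorted populations genotype therefore cannot be told apart from sex-linked expression, or from any difference on other chromosomes that goes with it. Genes of X and Y were left out below, which does not remove this overlap from the remaining genes. The brighter of the 2 Tet2 probe sets had 1225 and 1287 in WT and 2011 and 1943 in KO (log2 difference 0.65 ± 0.39, adjusted p = 0.849), and the dimmer had 92.1 and 86.4 in WT and 81.5 and 45.2 in KO. Their place relative to the deleted exons was not analysed here, and they give no check of the genotype labels.

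Of the markers of the sort, Kit, Cd34 and Fcgr3 are given, while Sca1 and the lineage panel are not shown here. Kit, which encodes c-Kit, had 2061 and 2046 in WT and 1868 and 1845 in KO, and Cd34 had 4983 and 4921 in WT and 5052 and 5426 in KO. Both were bright on all 4 arrays and neither passed the test (adjusted p = 0.938 and 0.961). Fcgr3, which encodes the Fc gamma receptor used to divide CMP from GMP, had 667 and 634 in WT and 750.2 and 1035 in KO (adjusted p = 0.836). In GMP it was brighter, at 5002 and 4297 in WT and 3382 and 4016 in KO. Of the 11 gate and stem surface markers measured, 0 passed, with log2 differences from -1.08 to 1.10.

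The comparison asked which genes differed between KO and WT CMP. Outside the X and Y chromosomes, 12 genes rose and 6 fell, with measured changes from 1.97-fold (Apobec3) to 17.5-fold (Fcer1a). The rises covered interferon-inducible genes (Gbp2b, Ifi44l, Ifi202b), the antiviral deaminase Apobec3, the surface receptors Fcer1a and Ccr1, the B-lineage genes Pou2af1 and Ms4a1, the pseudogene Hmga2-ps1 and 3 genes known by clone names. The falls were Wdfy1, Lamtor3, Arhgap31, Adgrl2, Anks1 and Dynlt1f. Regulators of myeloid fate such as Cebpa, Spi1 and Gata2 and the granule enzyme Mpo were not among them. Tests used limma with a mean for each of the 7 groups of the study, Benjamini-Hochberg adjustment over 18194 genes and an adjusted p below 0.05. Of 17568 genes on no X or Y chromosome, 0.0683% were called higher and 0.0342% lower, and 1074 had an unadjusted p below 0.05, of which 641 were higher. The spread was shared across all 14 arrays, and when the 4 CMP arrays were fitted alone 0 of the 18 passed, with adjusted p from 0.0547 upwards.

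All 18 differences kept their direction without each of the 14 arrays in turn. The number called did not keep its size, with 10 genes called without WT replicate 2, 16 without WT replicate 1, 24 without KO replicate 2 and 61 without KO replicate 1. Of the 18 themselves, 7 were still past the threshold without each WT CMP array, 12 without KO replicate 1 and 9 without KO replicate 2. Gbp2b, Ifi44l, Wdfy1, Ccr1, Hmga2-ps1, Pou2af1 and the clone-named BC018473 passed without each of the 14 arrays.

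**Figure D1:**
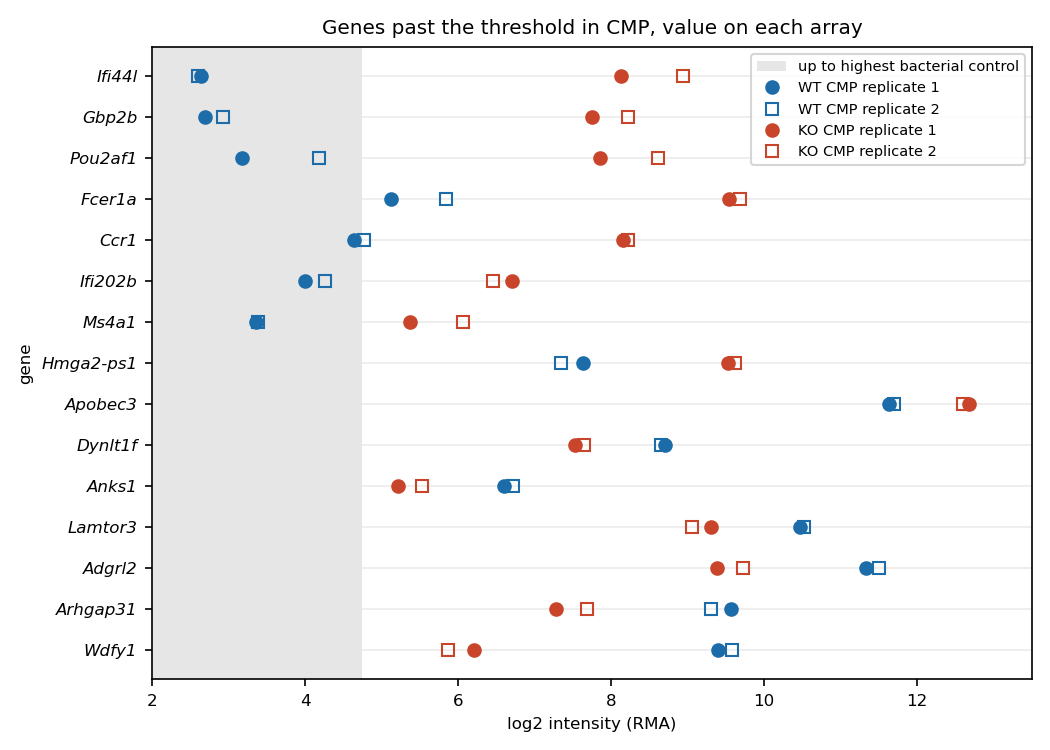
Log2 intensity of the 15 named genes past the threshold on each of the 4 CMP arrays, ordered by the difference. Blue marks are WT and red marks KO, and circles are replicate 1 and squares replicate 2. Grey spans intensities up to the highest bacterial control of the 4 CMP arrays. The WT and KO marks of each gene do not overlap. WT lies in the grey zone for Ifi44l, Gbp2b, Pou2af1, Ifi202b and Ms4a1, and for Ccr1 only WT replicate 1 does.

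**Figure D2:**
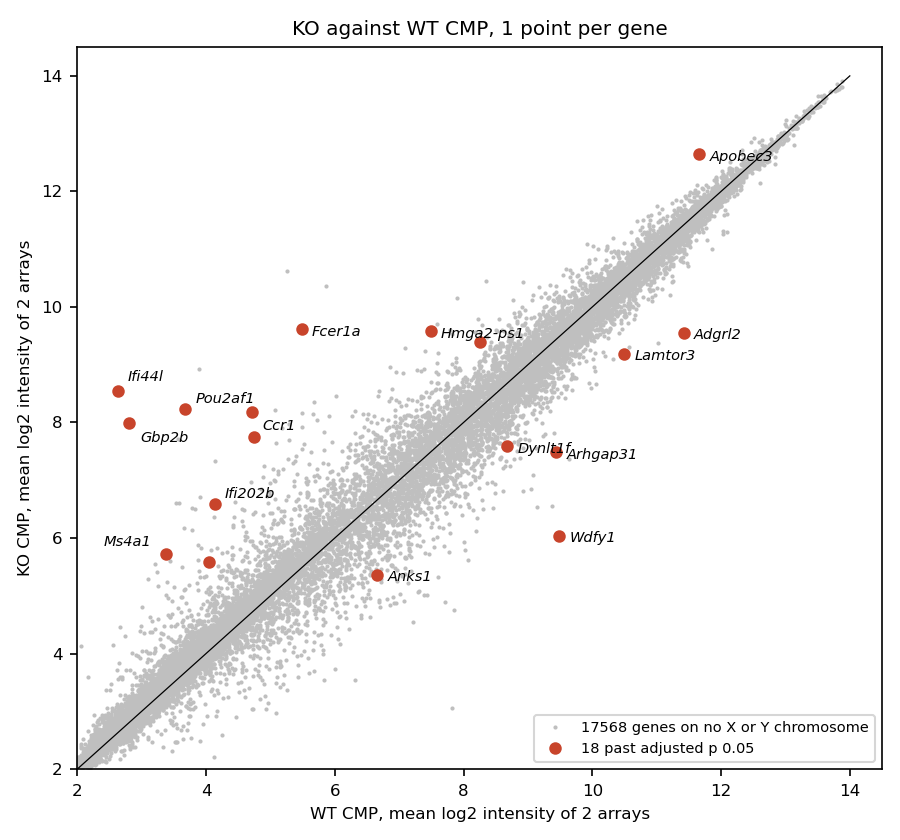
Mean log2 intensity in KO CMP (vertical) against WT CMP (horizontal), each over 2 arrays, for 17568 genes on no X or Y chromosome; the line marks equal levels. The 18 genes past the threshold are red, with 12 above the line and 6 below it, and most other genes lie close to the line.

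The 2 smallest p-values among these genes belonged to interferon-inducible genes. Gbp2b encodes a guanylate-binding protein, a GTPase of cell-autonomous defence against intracellular microbes. Its intensities were 6.48 and 7.59 in WT and 216 and 297 in KO. Both WT arrays lay far below the floor and both KO arrays far above it, so the level was at least 10.4-fold higher in KO (log2 difference 5.18 ± 0.21 SE, adjusted p = 5.63e-06). Ifi44l, an interferon-stimulated gene, showed the same layout, with 6.27 and 6.08 in WT and 281 and 492 in KO. KO replicate 2 was the brighter of the KO arrays in both genes, and Ifi44l was at least 15.2-fold higher in KO (log2 difference 5.91 ± 0.26, adjusted p = 8.29e-06). A further Ifi44l probe set had 5.57 and 5.50 in WT and 188 and 233 in KO. Ifi202b, of the p200 family of DNA-binding proteins, had 16.0 and 19.2 in WT and 105 and 87.9 in KO. WT lay below the floor on both arrays, and the level was at least 3.93-fold higher in KO (log2 difference 2.45 ± 0.28, adjusted p = 0.0139, up to 0.0951 without 1 CMP array). Its probe set is of a type that can hybridise with related transcripts. Apobec3 encodes a cytidine deaminase that restricts retroviruses. It was already bright, at 3172 and 3320.3 in WT and 6562 and 6219 in KO. The 4 values fell into tight pairs that did not overlap, a 1.97-fold rise (log2 difference 0.98 ± 0.12, adjusted p = 0.0176, up to 0.129 without 1 CMP array).

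The wider interferon lists held few other changes. Ifi44l was the 1 gene that passed of 29 interferon-stimulated genes measured, of which 16 had a difference above 0, 6 lay above WT on both KO arrays and 3 below, and the median was 0.09 on the log2 scale. Over all 17568 genes the median was 0.04, 57.6% had a difference above 0, 22.8% lay above WT on both KO arrays and 15.1% below WT on both. Of the classical response, Oasl1, of the oligoadenylate synthetase family, had 47.0 and 21.8 in WT and 116 and 100.3 in KO (adjusted p = 0.301). Ifit1, which binds viral RNA, had 21.3 and 55.3 in WT and 8.12 and 17.9 in KO (adjusted p = 0.837). Oasl1 was at the floor on WT replicate 2, and Ifit1 on WT replicate 1 and both KO arrays. With values raised to the floor their log2 differences were 1.60 and -0.48, so the direction of Ifit1 rests on WT replicate 2. Gbp2b was likewise the 1 call among 6 guanylate-binding proteins, where Gbp2 had 129.8 and 112 in WT and 174 and 276 in KO (adjusted p = 0.7) and the median was 0.22. In the p200 family Ifi202b was the 1 call of 8 genes, with a median of 0.47. With values raised to the floor these medians were 0.07 and 0.23, and 2 and 3 of the members were at the floor on all 4 arrays. Its relative Ifi209 had 596 and 473 in WT and 183 and 73.2 in KO, lower on both KO arrays but not past the threshold (log2 difference -2.20 ± 0.47, adjusted p = 0.29). Aim2, the DNA sensor of the inflammasome, had 286 and 222 in WT and 343 and 325 in KO (adjusted p = 0.827).

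Promoter sequence is shown for Gbp2b and Apobec3 because they were the 2 of 12 called genes with a RefSeq window that held the interferon response element spelled GAAA, any 2 bases, GAAA, read on both strands over the 250 bases before the start. It stood in 2 of 14 windows of called genes, in 8 of 23 interferon-stimulated genes with a window (27.6% of windows) and in 2.98% of all 32851 windows. The match began 137 bases before the start of Gbp2b and 140 before that of Apobec3, on the minus strand in each, and capitals mark it in the 200 bases before the start, from RefSeq on GRCm38.p6, at chr3:142594647-142594846 (plus strand) and chr15:79892208-79892407 (plus strand).
Gbp2b: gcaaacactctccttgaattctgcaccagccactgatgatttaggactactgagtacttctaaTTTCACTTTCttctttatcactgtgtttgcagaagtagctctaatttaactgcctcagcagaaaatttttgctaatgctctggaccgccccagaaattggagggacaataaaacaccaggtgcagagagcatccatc
Apobec3: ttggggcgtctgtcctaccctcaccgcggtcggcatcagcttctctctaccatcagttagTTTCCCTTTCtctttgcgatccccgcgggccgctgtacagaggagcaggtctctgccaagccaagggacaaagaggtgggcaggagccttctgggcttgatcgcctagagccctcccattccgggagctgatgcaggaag
A match describes letters in the window and does not show that a factor bound there.

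Of the called genes, Fcer1a, Ccr1 and Adgrl2 encode surface receptors, and they changed in both directions. Fcer1a encodes the IgE-binding subunit of the receptor that arms mast cells and basophils. Its intensities were 34.9 and 57.3 in WT and 745 and 823 in KO. KO replicates were close together and WT replicates were just above the floor, and the gene rose 17.5-fold (log2 difference 4.13 ± 0.53, adjusted p = 0.0233). It was not past the threshold without 8 of the 14 arrays, each of the 4 CMP arrays among them (adjusted p up to 0.127). Ms4a2, the beta chain of the same receptor, had 374 and 468 in WT and 267 and 375 in KO, and the shared gamma chain Fcer1g had 2772 and 2645 in WT and 2840.3 and 3197 in KO. The beta chain overlapped between the genotypes and neither chain passed (adjusted p = 0.951 and 0.933). Fcer1a was the 1 call among 21 mast cell and basophil genes, 13 of which had a difference above 0 (57.6% of all genes). Of the list, 8 lay above WT on both KO arrays and 2 below (22.8% and 15.1% of all genes). The median was 0.05, and with values raised to the floor it was 0.04, as over all genes. Summed intensities of the list were 21286 and 22054 in WT and 21700.0 and 22903 in KO. The mast cell protease Cpa3 had 962 and 1069.7 in WT and 919.8 and 1216 in KO and the basophil protease Mcpt8 588 and 464 in WT and 779 and 543 in KO, and 7 of the list, such as Mcpt1, Mcpt4 and Tpsab1, were at the floor on all 4 arrays. The part of mast cell or basophil precursors in the rise of Fcer1a was not tested. In sorted bulk cells, more cells of a type and more RNA per cell cannot be told apart.

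Ccr1 is a receptor for the inflammatory chemokines CCL3 and CCL5. It had 25.0 and 27.3 in WT and 284 and 298 in KO, which set dim WT values near the floor against KO values that hardly differed from each other. The rise was 11.1-fold (log2 difference 3.48 ± 0.25, adjusted p = 0.000451), and a dimmer probe set had 6.08 and 7.01 in WT and 34.5 and 20.2 in KO. Ccr1 was the 1 call of 19 chemokine receptors, of which 13 had a difference above 0 (57.6% of all genes) and 7 lay above WT on both KO arrays and 1 below (22.8% and 15.1% of all genes). The median was 0.11, or 0.04 with values raised to the floor, where 9 of the 19 lay on all 4 arrays. Ccr2, which brings monocytes out of the marrow, had 1992 and 2141 in WT and 3476 and 3403 in KO (log2 difference 0.74 ± 0.32, adjusted p = 0.806), and Cxcr4, which holds progenitors in the marrow, had 7872 and 7774 in WT and 8093 and 8394 in KO (adjusted p = 0.974). Adgrl2, an adhesion receptor of the latrophilin family, went the other way, with 2578 and 2904 in WT and 668 and 845 in KO. The KO arrays lay well below the WT arrays, and the gene fell by 1.86 ± 0.23 on the log2 scale (adjusted p = 0.0186, up to 0.159 without 1 CMP array). Another Adgrl2 probe set fell as well, from 1058 and 1260 in WT to 194 and 346 in KO (adjusted p over all probe sets = 0.0239).

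B-lineage genes gave 2 of the rises. Pou2af1 encodes a coactivator that octamer-binding factors use in B cells, and it had 9.01 and 18.2 in WT and 232 and 391 in KO. WT was below the floor on both arrays, KO replicate 2 was the brightest, and the level was at least 12.3-fold higher in KO (log2 difference 4.55 ± 0.46, adjusted p = 0.00558). Ms4a1, which encodes CD20, had 10.3 and 10.5 in WT and 41.4 and 67.2 in KO. WT values were nearly equal and below the floor, KO values modest, and the level was at least 2.16-fold higher in KO (log2 difference 2.35 ± 0.29, adjusted p = 0.0179, up to 0.131 without 1 CMP array). Jchain, which links antibody units, had 16.2 and 13.7 in WT and 457 and 514 in KO. Both KO arrays were far above both WT arrays, but replicates lay far apart in other groups (32.2 and 561 in WT GMP), and the gene did not pass (log2 difference 5.02 ± 1.08, adjusted p = 0.29).

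Other B cell genes named here lay higher in KO, overlapped between the genotypes or were at the floor. Spib, a transcription factor of B cells and plasmacytoid dendritic cells, had 47.3 and 32.3 in WT and 467 and 136 in KO (adjusted p = 0.595), and Ebf1, an early B cell factor, had 13.9 and 41.5 in WT and 129 and 61.8 in KO (adjusted p = 0.461). Pax5, Cd22, Blk and Cr2 were at the floor on all 4 arrays, as were 8 of 21 list members in all. Cd79b, a chain of the B cell receptor, had 639 and 556 in WT and 668 and 564 in KO, and Ighm had 436 and 301 in WT and 315 and 356 in KO, overlapping between the genotypes. Of the list, 2 genes rose and 0 fell, 15 had a difference above 0 (57.6% of all genes) and 9 lay above WT on both KO arrays and 3 below (22.8% and 15.1% of all genes). The median was 0.12, and with values raised to the floor it was 0.04, as over all genes. Summed intensities were 2952 and 3099.9 in WT and 4361 and 3663 in KO. The part of B-lineage cells in the rises of Pou2af1 and Ms4a1 was not tested.

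Genes of other lymphoid cells gave no call. Of 18 T and NK cell genes 11 had a difference above 0 (median 0.12, or 0.04 with values raised to the floor), and Btla, an inhibitory receptor of lymphocytes, had 188 and 234 in WT and 12.5 and 70.4 in KO (log2 difference -2.82 ± 0.65, adjusted p = 0.37). Of 19 lymphoid priming genes 8 were above 0 and the median was -0.11. In that list Vpreb1, a part of the surrogate light chain, had 403 and 1086 in WT and 164 and 53.3 in KO (adjusted p = 0.461), and Ltb, a lymphotoxin subunit, had 18.9 and 24.0 in WT and 44.1 and 128 in KO (adjusted p = 0.447). The KO replicates of these 3 genes lay far apart.

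Genes of antigen presentation by MHC class II lay higher in KO CMP as a list, though none passed the test. All 10 of 10 measured members had a difference above 0 (57.6% of all genes did), 8 lay above WT on both KO arrays and 0 below (22.8% and 15.1% of all genes), and the median log2 difference was 0.65 against 0.04. H2-Eb1, a beta chain, had 41.6 and 31.7 in WT and 184 and 311 in KO. Cd74, the invariant chain that escorts class II molecules, had 56.1 and 65.0 in WT and 200.02 and 380.0 in KO. The alpha chain gene H2-Aa had 65.4 and 128 in WT and 202 and 269 in KO. In these 3 genes WT stayed dim, KO was higher on both arrays, and KO replicate 2 was the highest. Their log2 differences were 2.72 ± 0.55 (adjusted p = 0.253), 2.19 ± 0.51 (adjusted p = 0.371) and 1.35 ± 0.37 (adjusted p = 0.469). H2-DMa and H2-Ob, which help load or regulate peptide binding, had differences of 0.34 and 0.35, and Ciita, the master coactivator of the class II genes, was near the floor at 23.4 and 21.2 in WT and 19.3 and 28.2 in KO. Summed intensities were 4856 and 5505 in WT and 6549 and 8901 in KO.

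Among cells that carry class II, 9 of 15 dendritic cell markers had a difference above 0 (median 0.06, summed intensities 7595 and 7737 in WT and 7196 and 7069 in KO), and 3 were at the floor on all 4 arrays. Cd83, a maturation marker of dendritic cells, had 12.1 and 16.6 in WT and 90.5 and 90.2 in KO (adjusted p = 0.526), and Zbtb46, a factor of classical dendritic cells, had 78.8 and 98.0 in WT and 47.8 and 19.0 in KO (adjusted p = 0.841). The part of dendritic or B cells in the class II values was not tested.

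**Figure D3:**
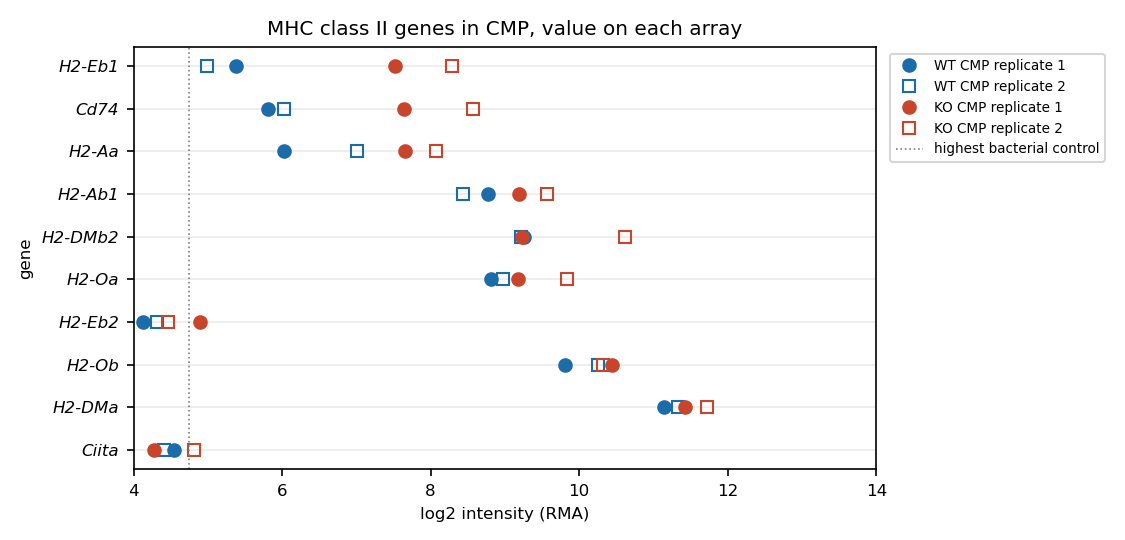
Log2 intensity of the 10 MHC class II genes measured on each CMP array, ordered by the difference. Blue is WT, red is KO, circles are replicate 1 and squares are replicate 2. The dotted line is the highest bacterial control of the CMP arrays. In 8 genes both KO marks lie right of both WT marks, with H2-DMb2 and Ciita as the exceptions, and none passed the threshold.

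Class II promoters share a Y box, an inverted CCAAT element bound by NF-Y. The spelling CTGATTGG, searched on both strands in the 250 bases before the start, occurred in 4 of 8 class II genes with a window (H2-Eb1, H2-Aa, H2-Oa and H2-Eb2, 44.4% of windows), in 3.83% of all windows and in 0 windows of the called genes. H2-Eb1, H2-Aa and H2-Oa are shown to let the shared element be seen beside their intensities, with the Y box in capitals beginning 62, 51 and 46 bases before the start. The windows of 200 bases come from RefSeq on GRCm38.p6, at chr17:34305667-34305866 (plus strand), chr17:34287824-34288023 (minus strand) and chr17:34092179-34092378 (plus strand).
H2-Eb1: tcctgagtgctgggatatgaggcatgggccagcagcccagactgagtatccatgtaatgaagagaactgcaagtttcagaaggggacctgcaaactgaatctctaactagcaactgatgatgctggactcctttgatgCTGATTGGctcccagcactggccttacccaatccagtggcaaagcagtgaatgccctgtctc
H2-Aa: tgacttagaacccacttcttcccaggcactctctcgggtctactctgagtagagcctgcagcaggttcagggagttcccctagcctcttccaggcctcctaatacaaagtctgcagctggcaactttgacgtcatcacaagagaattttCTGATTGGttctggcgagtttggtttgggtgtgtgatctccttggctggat
H2-Oa: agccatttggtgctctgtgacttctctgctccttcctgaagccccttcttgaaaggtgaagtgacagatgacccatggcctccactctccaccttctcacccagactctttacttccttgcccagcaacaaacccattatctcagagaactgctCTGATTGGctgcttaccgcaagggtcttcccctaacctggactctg
The 3 genes shared this element while their log2 differences were 2.72, 1.35 and 0.62.

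Since TET2 acts on C followed by G, such CG pairs were counted in the promoter windows of 300 bases. The median was 6.5 in the 12 called genes with a window, 3 in the 8 class II genes and 7 over all 27025 genes, so the called genes lay near the background. Fcer1a, Ccr1 and Pou2af1 are shown because they rose from levels at or near the floor in WT CMP. Fcer1a and Ccr1 had 1 pair each in the window, and 14.1% of all windows had as few or fewer, whereas Pou2af1 had 8 (54.2%). Capitals mark each CG in the 200 bases before the start, of which Fcer1a had 0, Ccr1 1 and Pou2af1 4, at chr1:173227230-173227429 (minus strand), chr9:123968693-123968892 (minus strand) and chr9:51213490-51213689 (plus strand).
Fcer1a: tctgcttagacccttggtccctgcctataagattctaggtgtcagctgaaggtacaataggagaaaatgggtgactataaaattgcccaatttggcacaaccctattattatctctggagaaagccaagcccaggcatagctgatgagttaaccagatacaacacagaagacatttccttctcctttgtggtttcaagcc
Ccr1: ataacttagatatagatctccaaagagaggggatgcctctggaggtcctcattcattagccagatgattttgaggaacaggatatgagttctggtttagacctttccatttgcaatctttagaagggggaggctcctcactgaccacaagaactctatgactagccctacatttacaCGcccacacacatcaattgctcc
Pou2af1: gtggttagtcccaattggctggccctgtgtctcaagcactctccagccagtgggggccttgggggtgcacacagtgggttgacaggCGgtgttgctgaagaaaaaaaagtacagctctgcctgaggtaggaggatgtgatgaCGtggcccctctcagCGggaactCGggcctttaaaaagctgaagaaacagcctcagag
Methylation was not measured on these arrays.

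Wdfy1, an endosomal adaptor of Toll-like receptor signalling, had 673 and 762 in WT and 73.9 and 58.4 in KO. Both KO arrays were far below both WT arrays, and the gene fell by 3.45 ± 0.24 on the log2 scale (adjusted p = 0.000419). Of its other probe sets, 1 had 571 and 490 in WT and 35.4 and 24.3 in KO. A dimmer one had 120 and 221 in WT and 24.7 and 52.5 in KO. It was lower on both KO arrays but did not pass (log2 difference -2.18, adjusted p over all probe sets = 0.147). Another overlapped, with 97.4 and 112 in WT and 73.1 and 225 in KO. Lamtor3, a scaffold of the Ragulator complex that anchors kinase signalling to lysosomes, had 1422 and 1469.6 in WT and 634 and 533 in KO. The pairs did not overlap, and the gene fell by 1.32 ± 0.15 (adjusted p = 0.012, up to 0.114 without 1 CMP array). It was the 1 call of 12 Ragulator and Rag GTPase genes, whose median was 0.01, and its partners Lamtor1, with 6670.1 and 6866 in WT and 7177 and 6465 in KO, and Lamtor5, with 3219.8 and 3680.1 in WT and 3305 and 3556 in KO, overlapped between the genotypes.

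Arhgap31, a GTPase-activating protein for Cdc42 and Rac, had 758 and 635 in WT and 155 and 206 in KO. This probe set fell by 1.96 ± 0.23 (adjusted p = 0.0139, up to 0.0929 without 1 CMP array), whereas the other 3 Arhgap31 probe sets were dim and did not pass. Anks1, an ankyrin-repeat adaptor of Eph receptors, had 96.8 and 105 in WT and 37.0 and 46.0 in KO and fell by 1.29 ± 0.16 (adjusted p = 0.0186, up to 0.159 without 1 CMP array). Dynlt1f, a dynein light chain, had 418 and 402 in WT and 185 and 200.4 in KO and fell by 1.09 ± 0.13 (adjusted p = 0.0172, up to 0.129 without 1 CMP array). In each of these genes both KO arrays lay below both WT arrays. Dynlt1f has near-identical copies and a probe set that can hybridise with them, so which copy changed is uncertain. Hmga2-ps1, a pseudogene of the chromatin protein gene Hmga2, rose from 198 and 163 in WT to 741 and 788 in KO (log2 difference 2.09 ± 0.16, adjusted p = 0.000551). The clone-named calls, given because they complete the 18, were BC018473 (23.7 and 30.1 in WT and 273 and 168 in KO), Gm46390 (333 and 283 in WT and 748 and 608 in KO) and D730005E14Rik (16.6 and 16.5 in WT and 43.2 and 53.8 in KO). Gm46390 was not past the threshold whichever of the 14 arrays was left out (adjusted p from 0.0628 to 0.309), and D730005E14Rik was not without 9 of them (up to 0.232).

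Among genes of cytosine modification, Apobec3 was the 1 call of 25, with 18 above 0 (57.6% of all genes). Of the list, 5 lay above WT on both KO arrays and 4 below (22.8% and 15.1% of all genes). The median was 0.14, or 0.11 with values raised to the floor, beside 0.04 over all genes. Tet1 had 792 and 598 in WT and 588 and 812 in KO and Tet3, the remaining TET enzyme, had 155 and 132 in WT and 146 and 183 in KO. The genotypes overlapped in both (adjusted p = 0.999 and 0.974). Dnmt3a, which sets new DNA methylation, had 2689.6 and 3568 in WT and 3388 and 3575 in KO (adjusted p = 0.954), and Dnmt1, which maintains it, had 8746 and 9080.1 in WT and 8221 and 7914 in KO (adjusted p = 0.912).

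Lists of the myeloid programme held 0 calls. Primary granule genes lay slightly lower in KO, with 14 of 16 below 0 (42.4% of all genes), 11 below WT on both KO arrays (15.1% of all genes) and a median of -0.14. Their summed intensities were 62642 and 62532 in WT and 58347 and 57601 in KO. Elane, neutrophil elastase, had 2821 and 2660.0 in WT and 2106 and 1996 in KO (log2 difference -0.42 ± 0.16, adjusted p = 0.756), whereas Mpo, myeloperoxidase, had 10549.7 and 10479 in WT and 10176 and 10163 in KO (log2 difference -0.05 ± 0.11, adjusted p = 0.974). Elane was lower on both KO arrays, and Mpo was within a few percent on all arrays. Ly86, a partner of a Toll-like receptor homologue, had 2421 and 2473 in WT and 1561 and 1267 in KO (adjusted p = 0.751), and Lyz2, lysozyme, was higher, with 2662 and 2518 in WT and 3322 and 3430.1 in KO (adjusted p = 0.837). Of 23 myeloid regulators 17 were below 0 and 10 below WT on both KO arrays, beside 42.4% and 15.1% of all genes (median -0.21). Cebpa, which drives granulocyte commitment, had 6812 and 6867 in WT and 6348 and 5494 in KO (adjusted p = 0.871), and Irf8, which drives monocyte and dendritic fates, had 2572 and 2672 in WT and 1914 and 1702 in KO (log2 difference -0.54 ± 0.19, adjusted p = 0.719). Both were lower on both KO arrays and did not pass. Spi1, which encodes PU.1, had 282 and 205 in WT and 224 and 207 in KO (adjusted p = 0.929) and overlapped. Cebpd, a relative of Cebpa, had 253 and 187 in WT and 166 and 148 in KO (adjusted p = 0.916).

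Late neutrophil genes had 8 of 14 above 0 (median 0.23). Mmp9, a secreted protease of late granules, had 155 and 88.6 in WT and 425 and 275 in KO (adjusted p = 0.746), and Camp, an antimicrobial peptide, had 1589.7 and 748 in WT and 1876 and 2263 in KO (adjusted p = 0.708). Monocyte and macrophage genes had 11 of 24 above 0 (median -0.19). Csf1r, the macrophage growth factor receptor, had 2242 and 1062 in WT and 758 and 1516 in KO, with replicates of a genotype further apart than the genotypes (adjusted p = 0.939). Vcam1, an adhesion molecule, had 52.4 and 44.1 in WT and 19.1 and 12.1 in KO (adjusted p = 0.188), while its other 2 probe sets were near the floor with log2 differences of 0.02 and 0.20. Of 7 eosinophil genes 5 were at the floor on all 4 arrays, and Siglecf had 449 and 565 in WT and 609.8 and 618 in KO (adjusted p = 0.961).

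Genes of the megakaryocyte and erythroid arm of CMP fate held 0 calls. Of 18 megakaryocyte genes 15 were above 0 and 9 lay above WT on both KO arrays and 1 below (median 0.21), beside 57.6%, 22.8% and 15.1% of all genes. Selp, P-selectin of platelet granules, had 554 and 429.9 in WT and 1216 and 1582 in KO. Both KO arrays were well above both WT arrays, and it was the list's smallest adjusted p (log2 difference 1.51 ± 0.27, adjusted p = 0.168). Gp9, of the platelet von Willebrand factor receptor, had 298 and 210.2 in WT and 438 and 396 in KO (adjusted p = 0.462), while Pf4, platelet factor 4, had 1945 and 2021 in WT and 1858 and 2336 in KO (adjusted p = 0.977). Of 18 erythroid genes 7 were above 0 and 3 lay above WT on both KO arrays and 7 below (median -0.14), so that the share above WT on both KO arrays lay under the 22.8% of all genes and the share below WT over their 15.1%. Car1, carbonic anhydrase of red cells, had 3449.6 and 4018 in WT and 2457 and 1722 in KO (log2 difference -0.86 ± 0.29, adjusted p = 0.673), and Klf1, a master regulator of the line, had 341 and 330.4 in WT and 369 and 129.9 in KO (adjusted p = 0.904). Gata2, a regulator of early progenitors, had 6666 and 7621 in WT and 6747 and 7067 in KO and overlapped (adjusted p = 0.979).

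Stem cell and self-renewal genes had 13 of 23 above 0 and a median of 0.06, with 0 calls. Mecom, a factor of stem cell maintenance, had 1122 and 835 in WT and 1686 and 2811 in KO (log2 difference 1.17 ± 0.63, adjusted p = 0.837), Meis1 had 210.1 and 194 in WT and 279 and 237 in KO (adjusted p = 0.974) and Hoxa9 had 864 and 614 in WT and 677 and 687 in KO (adjusted p = 0.973). Mecom was higher on both KO arrays but its replicates differed, Meis1 was higher on both by a small margin, and Hoxa9 overlapped. Hoxb4, a homeobox factor of stem cells, had 99.5 and 132 in WT and 44.0 and 58.6 in KO (adjusted p = 0.402), and Flt3, a receptor of multipotent progenitors, had 1264 and 1159.7 in WT and 1055 and 853 in KO (adjusted p = 0.893).

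Lists of cytokine receptors, the cell cycle and immediate early genes held 0 calls. Of 27 cytokine receptors 20 were below 0 and 8 below WT on both KO arrays (median -0.13), beside 42.4% and 15.1% of all genes. Csf2rb, the common beta chain for GM-CSF, had 1471 and 1583 in WT and 1109 and 899 in KO (log2 difference -0.61 ± 0.20, adjusted p = 0.633), and its mouse-specific relative Csf2rb2, which serves IL-3, had 407 and 780.3 in WT and 312 and 27.6 in KO (adjusted p = 0.7). Of 35 cell cycle genes 22 were below 0 (42.4% of all genes) and 15 below WT on both KO arrays (15.1%), with a median of -0.11. Ccnd1, cyclin D1, had 1501 and 1552 in WT and 589 and 676 in KO, lower on both KO arrays (log2 difference -1.27 ± 0.31, adjusted p = 0.403), but a further Ccnd1 probe set had 301 and 322 in WT and 195 and 467 in KO. Mcm3, a replication helicase subunit, had 4143 and 4383 in WT and 3302 and 3269 in KO (adjusted p = 0.7). Immediate early genes, which respond fast to outside signals, had 19 of 23 above 0 (57.6% of all genes), and 9 lay above WT on both KO arrays and 3 below (22.8% and 15.1% of all genes). Their median was 0.24, or 0.16 with values raised to the floor. Dusp1 had 2599 and 1808 in WT and 3657 and 3031 in KO (adjusted p = 0.871) and Ier3 1188 and 942 in WT and 1663 and 2008 in KO (adjusted p = 0.813). Of 12 stroma and endothelium genes 6 were at the floor on all 4 arrays, and the median was -0.03, or 0.04 with values raised to the floor.

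**Figure D4:**
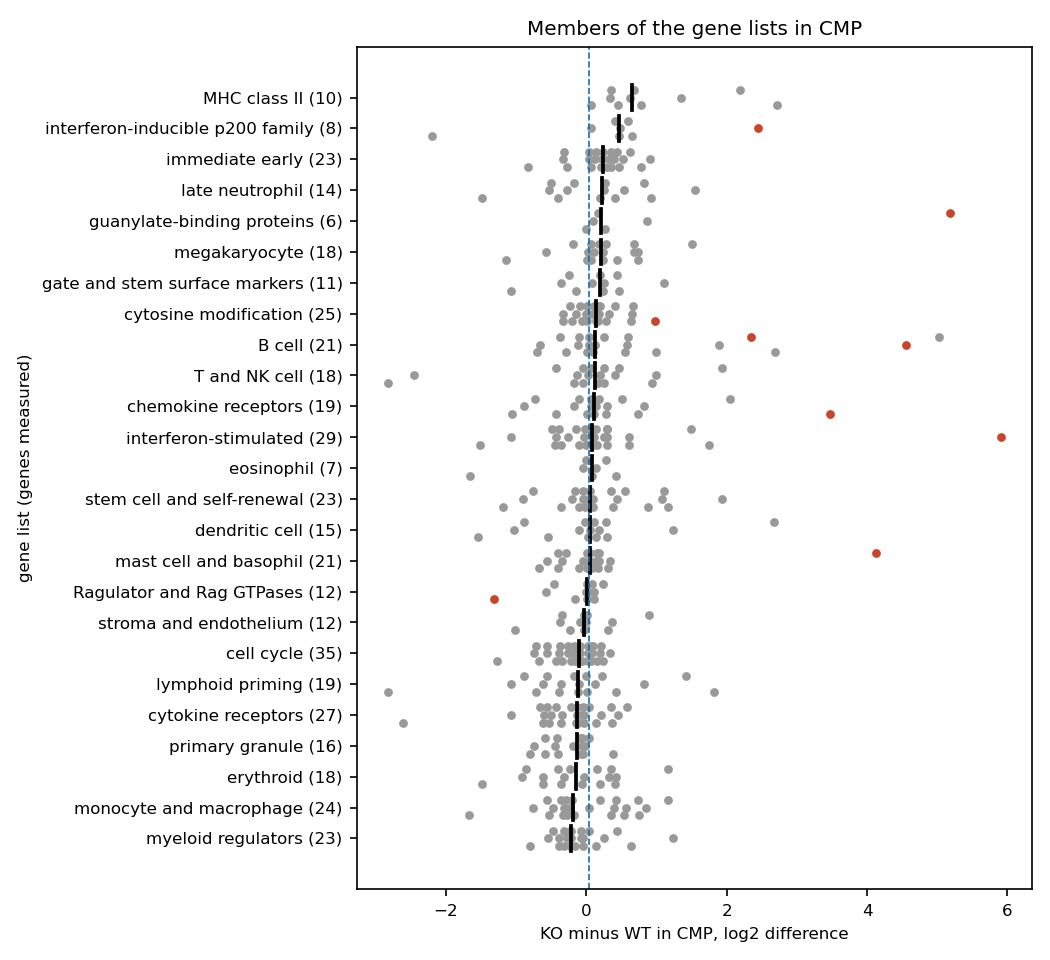
KO minus WT log2 difference in CMP of each measured member of the 25 gene lists, with the number measured in parentheses; black bars are list medians, the dashed blue line is the median of all genes (0.04), and red points passed the threshold. Medians run from -0.21 (myeloid regulators) to 0.65 (MHC class II), and in the B cell list Jchain, which did not pass, lies beyond both red points and Spib beyond that of Ms4a1.

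Whether the changes differed between populations was tested as the KO minus WT difference in CMP minus that in LSK or GMP. Of the 18 called genes, 16 had the same sign in LSK and 18 in GMP, and 8 passed in all 3 populations. The shares of all genes that did so are not given here. Each gene had 1 spread for the 3 populations, so a small spread favours passing in each, and these counts are not independent support. Gbp2b, at the floor in WT of each population, was at least 30.6-fold higher in KO LSK and at least 8.55-fold in KO GMP (adjusted p = 7.00e-07 and 9.11e-06). Lamtor3 differed between genotypes by -1.58 ± 0.15 in LSK and -2.24 ± 0.15 in GMP, and Apobec3 by 1.10 ± 0.12 and 0.96 ± 0.12 on the log2 scale. Ccr1, also at the floor in WT LSK, was at least 1.70-fold higher in KO LSK (adjusted p = 0.0966) and differed by 4.03 ± 0.25 in GMP, and Adgrl2 differed by -0.30 ± 0.23 (adjusted p = 0.752) and -1.65 ± 0.23 (adjusted p = 0.0519). The difference between populations itself did not pass for these genes.

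The difference from LSK passed in 4 genes, 0.0228% of 17568, and that from GMP in 0 (0%), with 1177 and 668 genes at an unadjusted p below 0.05. Pou2af1 was bright in LSK, at 1766 and 2087 in WT and 677 and 925 in KO, and dimmer in GMP, at 59.6 and 25.5 in WT and 251 and 179.8 in KO. The KO arrays lay below the WT arrays in LSK and above them in CMP and GMP, and the CMP minus LSK difference was 5.83 ± 0.65 (adjusted p = 0.0353). Mzb1, a chaperone of antibody-making cells, had 1208 and 1380.0 in WT and 317 and 213 in KO in LSK and 17.2 and 16.5 in WT and 38.6 and 29.0 in KO in CMP. It fell in LSK (adjusted p = 0.00491), and in CMP, where WT was below the floor, it did not pass (adjusted p = 0.399). The difference between these effects was 3.31 ± 0.33 (adjusted p = 0.0353). Ecscr, a surface protein of endothelial cells, had 229 and 224 in WT and 140.2 and 134 in KO in LSK and 40.0 and 39.6 in WT and 65.3 and 76.6 in KO in CMP, with a difference of 1.56 ± 0.17 (adjusted p = 0.0353). Trgv1, a T cell receptor gamma segment named after its values were seen, had 52.2 and 44.2 in WT and 13.4 and 14.6 in KO in LSK and was at the floor on all 4 CMP arrays and both KO LSK arrays (2.64 ± 0.28, adjusted p = 0.0353). With values raised to the floor, the differences became 4.90 ± 0.56 for Pou2af1, 2.77 ± 0.30 for Mzb1 and 1.20 ± 0.20 for Trgv1, and of these Trgv1 no longer passed (adjusted p = 0.0351, 0.0337 and 0.137). The count of 4 became 0 in a fit of the 12 sorted arrays or after quantile normalization, and it ranged from 0 to 72 when 1 array was left out: without WT CMP replicate 2 it was 0 and without WT LSK replicate 2 it was 72.

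**Figure D5:**
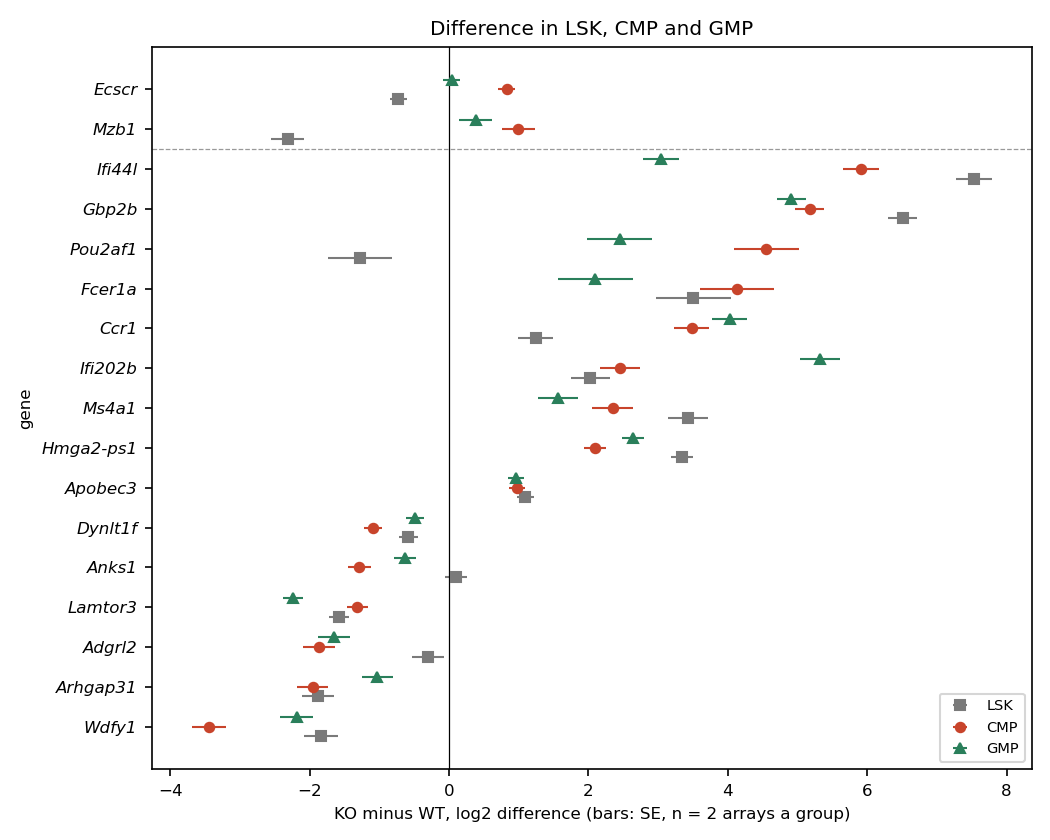
KO minus WT log2 difference in LSK (grey squares), CMP (red circles) and GMP (green triangles) for the 15 named genes past the threshold in CMP and, above the dashed line, Mzb1 and Ecscr; bars are standard errors with 2 arrays a group, and levels below the floor enter as measured. Pou2af1, Mzb1 and Ecscr lie left of 0 in LSK and right of it in CMP.

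MHC class II genes had 8 of 10 differences above 0 in LSK (median 0.53) and 9 of 10 in GMP (median 0.46), beside 10 of 10 in CMP. H2-Eb1 had 199 and 733 in WT and 1383 and 897 in KO in LSK and 40.0 and 71.2 in WT and 70.5 and 83.7 in KO in GMP, and Cd74 had 503 and 1571 in WT and 2734 and 1465 in KO and 59.5 and 57.4 in WT and 222 and 300.4 in KO. Levels were highest in LSK, where the WT replicates were far apart. Selp, not past the threshold in CMP, rose in LSK by 2.06 ± 0.27 (adjusted p = 0.0227) and in GMP by 2.14 ± 0.27 (adjusted p = 0.0258), and the difference of CMP from LSK did not pass (adjusted p = 0.867).

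The genes nearest outside the threshold had adjusted p between 0.0525 and 0.101. Those with higher values in KO were Ecscr, Cyyr1 (20.1 and 15.5 in WT and 156 and 167 in KO), Zfp712 (22.3 and 21.3 in WT and 80.5 and 122 in KO), Mttp (12.9 and 11.0 in WT and 120.1 and 370.3 in KO), Cav2 (192 and 149.7 in WT and 610.3 and 595 in KO) and Dnal1 (108 and 126 in WT and 441 and 557 in KO). Mttp loads lipid onto lipoproteins and Cav2 is a caveolin. Those with lower values were Sh3d19 (239 and 213 in WT and 9.27 and 7.42 in KO), Slc7a2 (44.1 and 30.3 in WT and 10.3 and 11.9 in KO), Tmem88b (35.5 and 26.3 in WT and 6.28 and 10.8 in KO) and Trem3 (418 and 429 in WT and 173 and 134 in KO). KO was at the floor on both arrays for Sh3d19, Slc7a2 and Tmem88b, as was WT for Cyyr1 and Mttp. Tmem88b and Zfp712 were also at the floor on 1 WT array. With values raised to the floor, log2 differences were -3.17 for Sh3d19, -0.54 for Slc7a2 and -0.30 for Tmem88b. They were 2.73 for Cyyr1, 3.11 for Mttp and 2.02 for Zfp712. Slc7a2 carries cationic amino acids, Trem3 is a myeloid receptor, and the last passing gene, Gm46390, had an adjusted p of 0.0496.

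By position, 4 of the 18 called genes lay on chromosome 3, that of Tet2, which held 5.25% of the genes tested on no X or Y chromosome. Counted along the RefSeq order, 18 tested genes separated Tet2 from Lamtor3, 41 from Gbp2b, 81 from Adgrl2 and 83 from Ifi44l. The other 14 lay elsewhere. Fcer1a and Ifi202b had 9 tested genes between them, with Ifi209 in that stretch, and 12 tested genes separated Ifi202b from Hmga2-ps1, so 3 of the calls stood near each other on chromosome 1. Apobec3 and D730005E14Rik were neighbours. The mice had a mixed B6/129 background, and differences between these strains, near Tet2 or elsewhere, cannot be told apart from Tet2 loss here.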

How the data were processed

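Total RNA of 14 samples in 7 groups of 2, grouped by title, was amplified and hybridised to Affymetrix mouse 430 2.0 arrays. The deposited values are linear intensities that the authors computed with RMA, per the submitters' processing notes, which name no version. Log2 was taken without further scaling. Of 45101 probe sets, 34958 name 1 gene; the one with the highest mean stood for a gene, which left 18194 genes. Tests were limma 3.58.1 in R 4.3.3 (lmFit, eBayes), 1 mean per group over 14 arrays, two-sided, with Benjamini-Hochberg adjustment over all genes. Errors are moderated standard errors. The floor is the highest of 27 bacterial control probe sets on an array, a choice made after the data were seen; where a group lay at or below it on both arrays, the fold is a bound against the mean floor. Promoters came from RefSeq on GRCm38.p6. The script was tested on simulated data.

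Named genes were all calls on no X or Y chromosome without clone names, the members with the lowest p of each of 25 lists (4 at most; 454 of 506 members measured), 18 regulators and markers, and the 10 nearest outside the threshold. Phgdh, Trgv1, the clone-named calls and list members named beside these were chosen after their values were seen, as partners of a named gene or defining markers of a lineage. The comparison, members and lists were chosen with earlier results of these data known. Replicate numbers did not pair samples (correlation of same-numbered deviations -0.08 in LSK, 0.06 in CMP and 0.10 in GMP). Alternatives were other sample sets, a replicate block, quantile normalization, a filter on dim genes, all probe sets, a trend in the spread and leaving out arrays. The number of arrays limits the precision, and no slide or scan date was used.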

Additional observations from a re-analysis of the deposited data

Results flagged for a closer look

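The KO minus WT difference in CMP differed from that in LSK in 4 genes by limma's test of the difference itself, each with an adjusted p of 0.0353. Pou2af1 stood out by 5.83 ± 0.65 on the log2 scale, with mean levels of 1919.9 in WT and 791 in KO LSK against 12.8 and 301 in CMP. Mzb1 differed by 3.31 ± 0.33, Trgv1 by 2.64 ± 0.28 and Ecscr by 1.56 ± 0.17. All 4 were brighter in WT LSK than in KO LSK, and 3 of them were at or below the floor in WT CMP. With values raised to the floor, an alternative chosen after seeing the data, the difference was 4.90 ± 0.56 for Pou2af1, 2.77 ± 0.30 for Mzb1 and 1.20 ± 0.20 for Trgv1, and that of Trgv1 no longer passed (adjusted p = 0.137).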

How the results depend on the processing

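With 2 arrays a group, the number of arrays limits every count. Fitted on the populations compared alone, the 22 genes past the threshold in CMP (18 on no X or Y chromosome) became 2 (0), and the 4 that differed from LSK became 1. Testing all probe sets gave 38 (31) and 0. The count of 4 was 0 for the 12 sorted arrays, with quantile normalization and with the replicate block, and 6 with values raised to the floor. The replicate block gave 23 genes in CMP (19 on no X or Y chromosome). Leaving out chromosomes X, Y and 3, an alternative chosen after seeing the data like the raising to the floor, 12 passed. Leaving out 1 array gave 14 to 66 genes in CMP (10 to 61 on no X or Y chromosome), 0 to 72 that differed from LSK and 0 to 7 that differed from GMP. A lone array was then taken to vary like the other groups. Of the 18 genes, 11 passed in every setting beside leave-outs except the CMP arrays alone, and 0 changed sign. The cause of these shifts was not tested.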

Other observations

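Phgdh, which encodes the first enzyme of serine synthesis, was read by 4 probe sets listed for it alone, which disagreed. In CMP 1 of them had intensities of 5777 and 5916 in WT and 42.3 and 40.9 in KO, a log2 difference of -7.14 ± 0.35 (limma adjusted p over all probe sets 3.75e-05). The other 3 had log2 differences of 0.07, -0.10 and 0.04, and the brightest of them had 2785 and 2798 in WT and 2729 and 3125 in KO. A further probe set, listed for both Gm6756 and Phgdh, fell from 341 and 296 in WT to 24.5 and 46.9 in KO (log2 difference -3.23 ± 0.33, adjusted p over all probe sets 0.00911). Phgdh lies on the chromosome of Tet2 with 225 tested genes between them. It was chosen after its values were seen, and its gene-level probe set by the highest mean was not the one that fell. Of 38 probe sets past the threshold, 7 are listed with no gene and 2 with several genes.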
